A study of Mus musculus with 20 samples.

Results

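The genes described are 8 members of the vascular endothelial growth factor (VEGF) system: the receptors Kdr (VEGFR2) and Flt1 (VEGFR1), the co-receptors Nrp1 and Nrp2 (neuropilins), and the ligands Vegfa, Vegfb, Vegfc and Pgf. They were taken as probe sets whose platform annotation gives exactly 1 of these symbols. Each of the 8 genes had 1 such probe set, of 41345 on the array and 23521 with a single symbol, and all 8 passed the filter on low values that left 14886 probe sets for testing. RNA was measured on 20 Affymetrix mouse arrays of endothelial cells sorted from the ear as positive for CD31 and negative for CD45 and Ter119. The arrays fell into 6 of control mice after vehicle, 6 of control mice after the hapten DNFB (dinitrofluorobenzene), 4 of NICD1-EC-OE mice after vehicle and 4 of such mice after DNFB.

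The NICD1-EC-OE mice (NICD mice below) carry an inducible endothelial Cre and a Rosa26 allele for the Notch1 intracellular domain, a constantly active form of the Notch1 receptor. The genotype label reads Pdgfb-CreERT2; R26-NICD, whereas the labels' text on how the mice were bred names CDH5-iCre, so the driver is not settled. The alleles of the control mice are not given beyond the word control. Per the labels' protocols, mice received 5 injections of tamoxifen, which activates such a Cre, then DNFB on the skin on days 0 and 1, and the ear was challenged on day 5 and taken 24 hours later. Whether the mice behind the vehicle arrays were sensitised is not stated, nor whether a vehicle ear and a DNFB ear came from the same mouse. Nothing in the labels says whether arrays of a group came from separate animals, so the p-values measure the spread between these arrays. The array called NICD vehicle replicate 4 is a vehicle sample by its title and a DNFB sample by its description. The title was followed here. On the first principal component of all arrays it lay at 44.3, among the other NICD vehicle arrays (42.3 to 46.9) and away from the NICD DNFB arrays (-34.7 to -32.0).

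VEGF-A binds both receptors: KDR carries most of the signal for endothelial growth, survival and permeability, while FLT1 binds VEGF-A tightly, signals weakly and limits how much ligand reaches KDR. Of KDR and FLT1, VEGF-B and placental growth factor (Pgf) bind only FLT1. VEGF-C acts on the lymphatic receptor FLT4 and, once processed, on KDR. Neuropilins present ligands to these receptors and also bind class 3 semaphorins. Notch signalling is known to hold back sprouting in part through the receptors' levels, and inflamed skin is a known source of VEGF-A.

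The promoters of these genes were read from RefSeq (GRCm38.p6), which held windows for 8 of the 8 genes, with 2 windows each for Vegfa and Pgf. The 250 bases before the start are printed for the ligand with the largest difference between the genotypes (Vegfc), for the ligand that rose most after DNFB in control mice (Vegfa, first window) and for the neuropilin that changed little (Nrp2). Capitals mark the ETS core GGAA, on either strand, the sequence at the heart of the sites of endothelial ETS factors such as FLI1 and ERG. Vegfc lies at chr8:54077282-54077531 on the plus strand, Vegfa at chr17:46032378-46032627 on the minus strand and Nrp2 at chr1:62703067-62703316 on the plus strand.
Vegfc: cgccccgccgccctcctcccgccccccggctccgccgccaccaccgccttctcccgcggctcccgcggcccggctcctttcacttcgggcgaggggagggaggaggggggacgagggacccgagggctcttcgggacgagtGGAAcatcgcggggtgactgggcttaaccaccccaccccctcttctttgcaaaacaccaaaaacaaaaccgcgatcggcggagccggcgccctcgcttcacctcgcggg
Vegfa: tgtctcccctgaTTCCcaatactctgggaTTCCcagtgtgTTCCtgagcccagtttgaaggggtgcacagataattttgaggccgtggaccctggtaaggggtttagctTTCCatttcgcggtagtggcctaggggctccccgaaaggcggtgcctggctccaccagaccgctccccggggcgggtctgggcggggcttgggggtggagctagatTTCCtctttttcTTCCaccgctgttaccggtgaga
Nrp2: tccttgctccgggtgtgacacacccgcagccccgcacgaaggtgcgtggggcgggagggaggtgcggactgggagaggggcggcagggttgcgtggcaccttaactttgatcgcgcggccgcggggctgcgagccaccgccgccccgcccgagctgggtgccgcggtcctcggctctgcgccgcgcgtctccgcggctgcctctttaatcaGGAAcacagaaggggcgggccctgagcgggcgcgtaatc

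The Vegfa window held 6 copies of GGAA, and those of Vegfc and Nrp2 1 each. The windows of Kdr, Flt1 and Nrp1, which are not printed because RefSeq's gene model begins further upstream, held 4 copies each; that of Vegfb held 1 and those of Pgf none. The core was found in 93.4% of the 32851 windows of this length in the table, so its presence is common. TGGGAA, the core bound by the Notch effector RBPJ, overlaps GGAA and was in 21.6% of windows. It occurred once in the Kdr window, 128 bases before the start, and 2 times in each Vegfa window, and was not found in the windows of the other genes. ACGTG, the hypoxia response core, was in 16.6% of windows and among these genes only in the second Vegfa window, 211 bases before that start. RefSeq's gene model begins 7214 bases upstream of that start, so the second Vegfa window lies within the gene. Both Pgf windows lie within the gene model too, which begins 472 and 1803 bases upstream of their starts. Matches in such windows are not read as promoter content. The GC box GGGCGG (32.7% of windows) was in at least 1 window of each gene, and TATAAA, the TATA box (12.4%), only in that of Flt1, 31 bases before the start. All were searched on both strands, and a match is a description of these letters, not a bound site.

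Values are log2 RMA values (robust multi-array average, a summary of a probe set's brightness), so a difference of 1 is a doubling; levels were compared within a gene and never between genes. The scale of the deposited values differed by genotype: medians of single control arrays ran from 3.87 to 3.98 and of single NICD arrays from 3.52 to 3.62, and their minima from 0.412 to 0.590 and from 1.18 to 1.30. The genotypes also differed in sex markers. Xist, which silences the X chromosome in females, averaged 2.58 and 2.86 in control vehicle and DNFB arrays, against 9.0 and 8.60 in the NICD arrays. Eif2s3y, a Y-linked gene, averaged 6.75 and 6.79 against 2.39 and 2.44. Genotype, sex and array set cannot be told apart, so NICD against control differences are given as deposited and after setting the array medians equal (centred). Notch1, the overexpressed gene, lay between 9.47 and 10.02 on all arrays and differed by -0.10 ± 0.10 (SE) in vehicle ears and by -7.5e-06 ± 0.10 in DNFB ears as deposited (limma, Benjamini-Hochberg adjusted p = 0.445 and 1.00). After centring it was 0.37 ± 0.10 higher in NICD DNFB ears (limma, adjusted p = 0.00688) and 0.22 ± 0.10 higher in NICD vehicle ears (limma, adjusted p = 0.111); whether the probes lie in the part the transgene carries is not given in the sources used here. Hey1, a Notch target, was 0.59 ± 0.11 and 1.10 ± 0.11 higher in NICD vehicle and DNFB ears (0.92 and 1.47 centred). Hey2, another Notch target, differed by 0.18 and 0.20 and did not pass as deposited (limma, adjusted p = 0.458 and 0.407). Centred, Hey2 differed by 0.51 and 0.57 and passed in DNFB ears only (limma, adjusted p = 0.0546 and 0.0224).

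Pan-endothelial markers were above background in all groups. All 12 pan-endothelial markers, among them Pecam1 (11.72 in control vehicle ears) and Cdh5 (11.77), stood above the 95th percentile of 1420 odorant, vomeronasal and trace amine receptor probe sets, genes not expected in skin, which was 3.90 in control vehicle ears and 3.48 in NICD DNFB ears. So did every member on every array, the lowest value being 5.44. Markers of other cells were present too and moved with DNFB. The mean level of 10 keratinocyte markers ran from 5.94 to 7.08 over control vehicle arrays and from 7.13 to 8.92 over control DNFB arrays, and from 6.47 to 7.0 and from 7.29 to 8.0 in NICD mice. Single markers of this list differed widely in level. Krt14 averaged 11.08 and 11.64 in control vehicle and DNFB ears and 11.08 and 11.30 in those of NICD mice. Krt6a and Krt16 were at or under that percentile in control vehicle ears, as was Krt16 in NICD vehicle ears. Ptprc (CD45), which the sort removes, was at or under that percentile in vehicle ears (3.79 in control and 3.30 in NICD mice) and averaged 5.0 and 4.86 after DNFB. In these bulk samples fewer cells of a type and less RNA per cell cannot be told apart.

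**Figure D1:**
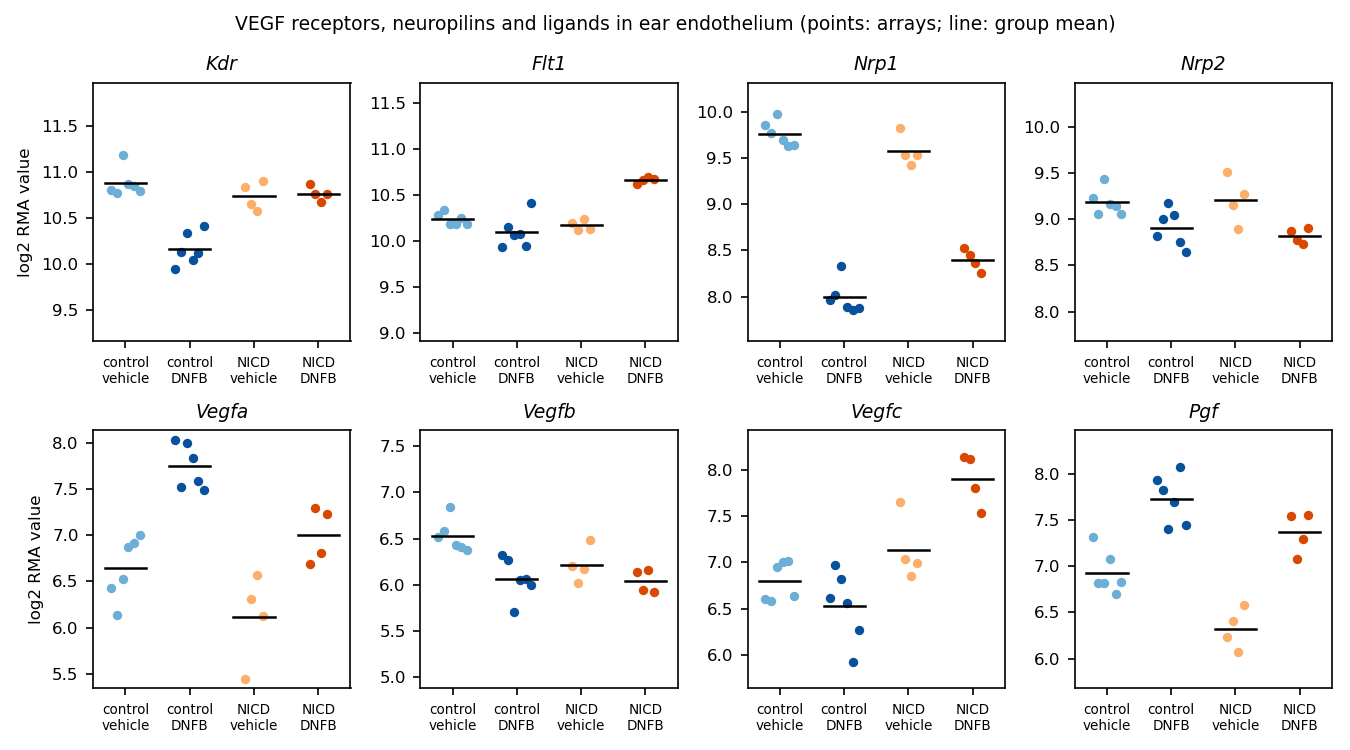
Log2 RMA value (y axis, each panel with its own range of the same height) of the 8 VEGF genes by group (x axis); a point is 1 array and a line the mean of 6 control or 4 NICD arrays. Nrp1 falls after DNFB in both genotypes, the Kdr groups are apart in control mice and overlap in NICD mice, and Vegfc and Flt1 are highest in NICD DNFB ears.

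In control mice the main receptor Kdr and the co-receptor Nrp1 were lower after DNFB, and the ligands Vegfa and Pgf higher. The fall of Nrp2 was small and passed only narrowly. Of the 8 genes, 2 rose and 4 fell past an adjusted p of 0.05 (limma, Benjamini-Hochberg over all probe sets tested). Among all probe sets 47.2% passed (23.7% higher, 23.6% lower), so 6 of 8 is to be read against about every other probe set. The groups did not overlap for 5 of the 8, against 26.9% of all probe sets. The median difference was -0.27 over the 8 genes and -0.0012 over all probe sets. Past a 2-fold limit as well were 2 of the 8, Nrp1 and Vegfa, against 11.4% of all probe sets.

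Kdr ranged from 10.78 to 11.19 (median 10.83) on the control vehicle arrays and from 9.94 to 10.42 (median 10.13) on the control DNFB arrays. Every DNFB array lay below every vehicle array. The fall was 0.71 ± 0.10 (SE) on the log2 scale, or 1.64-fold (limma, adjusted p = 4.88e-06).

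Flt1 ranged from 10.18 to 10.34 (median 10.22) after vehicle and from 9.93 to 10.41 (median 10.07) after DNFB. The groups overlapped because DNFB replicate 6, at 10.41, was above every vehicle array while the other 5 DNFB arrays were below the lowest. The difference of -0.14 ± 0.08 did not pass (limma, adjusted p = 0.164). Without that array it was -0.20 ± 0.07 and passed (limma, adjusted p = 0.0293), as it did after quantile normalization (-0.22 ± 0.08, limma, adjusted p = 0.0356).

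Nrp1 showed the largest change of the 8 genes in control mice. It ranged from 9.63 to 9.98 (median 9.74) after vehicle and from 7.86 to 8.33 (median 7.93) after DNFB. The groups lay far apart, with a fall by 1.78 ± 0.10 on the log2 scale or 3.42-fold (limma, adjusted p = 4.66e-11), the 318th largest difference of 14886.

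Nrp2, the neuropilin known from veins and lymphatics, ranged from 9.06 to 9.44 (median 9.16) and from 8.64 to 9.18 (median 8.92). The groups overlapped, and the fall of 0.28 ± 0.11 passed narrowly (limma, adjusted p = 0.0474). It no longer passed when any one of 13 of the 20 arrays was left out (control vehicle replicates 1, 3, 4 and 5; control DNFB replicates 1, 5 and 6; NICD vehicle replicates 2 and 4; all 4 NICD DNFB arrays), with limma adjusted p up to 0.116.

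Among the ligands, Vegfa, the main driver of vessel growth and leakage, ranged from 6.13 to 7.0 (median 6.70) after vehicle and from 7.49 to 8.04 (median 7.71) after DNFB. All 6 DNFB arrays were above all 6 vehicle arrays. The rise was 1.10 ± 0.19 or 2.15-fold (limma, adjusted p = 5.34e-05).

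Pgf, a ligand known from inflamed and healing tissue, ranged from 6.70 to 7.32 (median 6.82) and from 7.41 to 8.08 (median 7.76). Again the groups did not overlap, and the rise was 0.80 ± 0.14 or 1.75-fold (limma, adjusted p = 6.63e-05).

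Vegfb, a ligand linked to survival and fat handling of vessels more than to sprouting, ranged from 6.37 to 6.84 (median 6.47) and from 5.71 to 6.33 (median 6.05). Its groups just separated, with a fall by 0.46 ± 0.11 or 1.38-fold (limma, adjusted p = 0.00212). Vegfc, the lymphatic ligand, ranged from 6.58 to 7.01 (median 6.80) and from 5.92 to 6.97 (median 6.59). These groups overlapped and the difference of -0.27 ± 0.17 did not pass (limma, adjusted p = 0.211).

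Marker lists moved with these values in control mice, where 23.7% of all probe sets rose and 23.6% fell. Of the 12 pan-endothelial markers 10 fell and none rose, with a mean list level of 10.24 to 10.46 over vehicle arrays and 9.42 to 9.84 over DNFB arrays; Tek, the angiopoietin receptor, fell by 1.97. Of the 9 pericyte and smooth muscle markers 8 fell (8.73 to 9.13 against 7.50 to 8.32). Keratinocyte markers rose in 4 and fell in 2 of 10 tested. All 7 neutrophil markers tested rose (3.14 to 3.5 against 4.90 to 6.08), though Mmp8 was still at or under the background percentile after DNFB, as was Ly6g, which was not tested. Of 9 macrophage markers tested 5 rose (3.81 to 4.40 against 4.60 to 5.56), with Adgre1 at or under that percentile, and so did all 5 platelet markers (4.14 to 5.21 against 5.61 to 7.13) and 3 of 7 fibroblast markers (5.96 to 6.72 against 6.87 to 7.71). Of 5 lymphatic markers 1 rose and 1 fell. No marker was at 0. Their part in the differences of the VEGF genes was not tested.

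In NICD mice the ligands Vegfa and Pgf rose and Nrp1 fell as well, while Flt1 and Vegfc were higher after DNFB and Kdr was at about the same level. Of the 8 genes, 4 rose and 2 fell (limma), against 38.1% of all probe sets in either direction (20% higher, 18.1% lower). The groups did not overlap for 4 of the 8, against 37.3% of all probe sets. The median difference was 0.26 over the 8 genes and 0.0067 over all probe sets. Past a 2-fold limit were Nrp1 and Pgf, 2 of the 8, against 10.9% of all probe sets.

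Kdr was 10.84, 10.66, 10.58 and 10.90 on the NICD vehicle arrays and 10.87, 10.76, 10.68 and 10.76 on the NICD DNFB arrays. The 2 sets lay within the same range. The difference was 0.02 ± 0.12 (95% interval -0.23 to 0.27; limma, adjusted p = 0.908), and it turned to -0.01 after quantile normalization.

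Flt1 was 10.19, 10.12, 10.24 and 10.13 after vehicle and 10.62, 10.66, 10.69 and 10.67 after DNFB. The DNFB arrays stood above every other array of the study. The rise was 0.49 ± 0.10 or 1.41-fold (limma, adjusted p = 0.000547).

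Nrp1 was 9.83, 9.53, 9.43 and 9.54 after vehicle and 8.52, 8.46, 8.36 and 8.26 after DNFB. The groups were apart by almost a full unit, and the fall was 1.18 ± 0.12 or 2.27-fold (limma, adjusted p = 2.48e-07). Nrp2 was 9.52, 9.15, 8.90 and 9.27 after vehicle and 8.87, 8.78, 8.73 and 8.91 after DNFB. Vehicle replicate 3 lay within the DNFB range; the fall of 0.39 ± 0.14 passed (limma, adjusted p = 0.0294) and did not after centring (-0.34, limma, adjusted p = 0.0555). It was also lost without NICD vehicle replicate 1 or 4 or NICD DNFB replicate 2 or 3, with limma adjusted p of 0.0638 to 0.116.

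Vegfa was 5.44, 6.31, 6.57 and 6.13 after vehicle and 6.69, 7.30, 6.81 and 7.24 after DNFB. Vehicle replicate 1 was the lowest Vegfa value of the study, and the groups did not overlap (rise 0.90 ± 0.23 or 1.86-fold; limma, adjusted p = 0.00358). Without that array the rise was 0.67 (limma, adjusted p = 0.0184).

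Pgf was 6.23, 6.41, 6.07 and 6.58 after vehicle and 7.55, 7.08, 7.30 and 7.56 after DNFB. Every DNFB array was above every vehicle array, by 1.05 ± 0.17 on average or 2.07-fold (limma, adjusted p = 5.03e-05). Vegfb was 6.2, 6.02, 6.17 and 6.48 after vehicle and 6.14, 5.94, 6.16 and 5.92 after DNFB. These values overlapped, with a difference of -0.18 ± 0.14 (95% interval -0.47 to 0.11; limma, adjusted p = 0.347). Without NICD vehicle replicate 4 it was -0.089 (limma, adjusted p = 0.687).

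Vegfc was 7.65, 7.04, 6.86 and 6.99 after vehicle and 8.15, 8.12, 7.81 and 7.54 after DNFB. Only vehicle replicate 1 reached into the DNFB range. The rise was 0.77 ± 0.21 or 1.70-fold (limma, adjusted p = 0.00672). Without NICD vehicle replicate 4, whose labels disagree, 5 of the 8 genes passed, against 5068 of all 14886 probe sets. Nrp2 was lost (-0.37, limma, adjusted p = 0.0675), and Flt1 (0.48), Nrp1 (-1.2), Vegfa (0.90), Vegfc (0.72) and Pgf (1.13) remained.

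In the NICD arrays 7 of 12 pan-endothelial markers fell and 1 rose after DNFB, and 7 of 9 pericyte and smooth muscle markers fell. Of 7 neutrophil markers 6 rose, of 9 macrophage markers 4, of 5 platelet markers 3, of 10 keratinocyte markers 3 (1 fell) and of 7 fibroblast markers 2 (1 fell). Of the 5 lymphatic markers 1 rose and 2 fell. Among all probe sets 20% rose and 18.1% fell in NICD mice. The markers' part in the VEGF genes' differences was not tested.

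**Figure D2:**
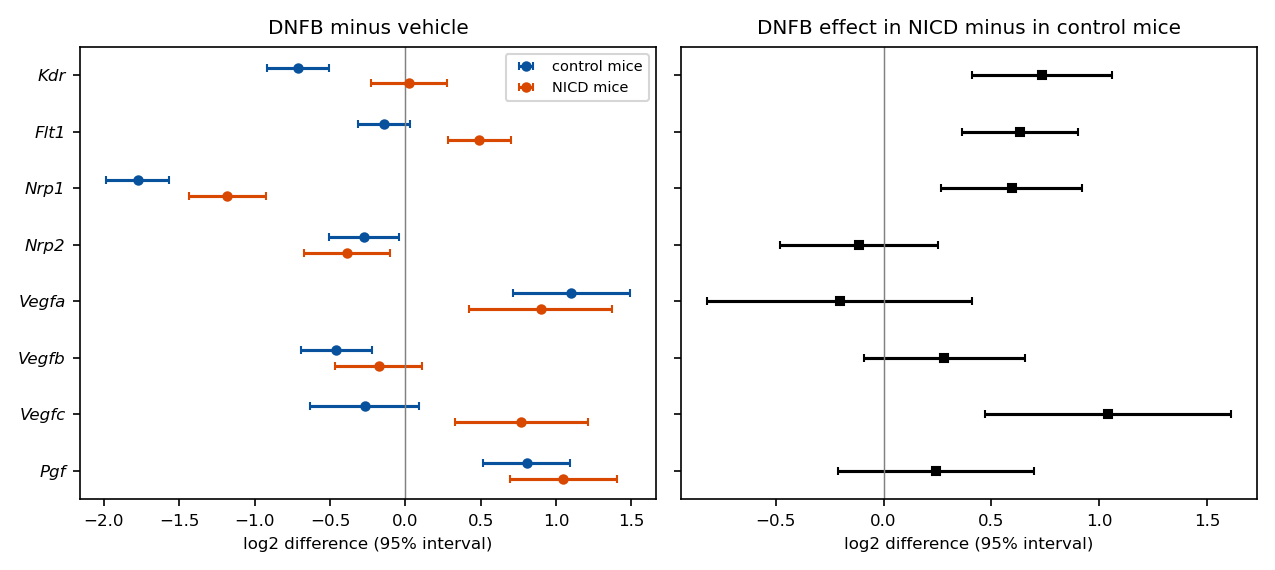
Left, DNFB minus vehicle (log2, x axis) for each of the 8 genes in control (blue) and NICD mice (orange); right, the effect in NICD mice minus that in control mice; points are limma estimates and bars 95% intervals. The intervals of Kdr, Flt1, Nrp1 and Vegfc in the right panel lie above 0, while none of the 8 genes passed after adjustment over all probe sets.

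The difference of the DNFB effects asks whether DNFB acted differently in the NICD mice. None of the 8 genes passed in limma after adjustment over all 14886 probe sets, of which 0.0134% passed in all, 2 probe sets. At an unadjusted limma p under 0.05 there were 4 of the 8, Kdr, Flt1, Nrp1 and Vegfc, against 10.6% of all probe sets. The largest difference was that of Vegfc, 1.04 ± 0.27 (95% interval 0.47 to 1.61; limma, adjusted p = 0.169). Kdr differed by 0.74 ± 0.16 (0.41 to 1.06; limma, adjusted p = 0.0899), Flt1 by 0.63 ± 0.13 (0.36 to 0.90; limma, adjusted p = 0.0839) and Nrp1 by 0.59 ± 0.16 (0.26 to 0.92; limma, adjusted p = 0.172). All 4 were positive: after DNFB these genes were less reduced, or more raised, in NICD arrays. Vegfa (-0.20, -0.82 to 0.41), Vegfb (0.28, -0.09 to 0.66), Pgf (0.24, -0.21 to 0.70) and Nrp2 (-0.11, -0.48 to 0.25) had intervals that include 0.

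Kdr and Flt1 did pass under some settings. With trended and robust variances the limma adjusted p was 0.0212 and 0.0161, with array weights 0.0447 for both, and 0.04996 and 0.0481 where the replicate number entered as random block. Leaving out control DNFB replicate 6, the array with the highest Kdr and Flt1 among its group, gave 0.79 and 0.70 (limma, adjusted p = 0.0330 and 0.0208). Over the other alternatives and omissions neither gene passed, with limma adjusted p up to 0.1998.

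NICD and control mice were next compared within each treatment. In vehicle ears Kdr and Flt1 did not pass as deposited, with array medians set equal or after quantile normalization. As deposited, 2 of the 8 genes were lower in NICD arrays, Pgf and Vegfa, and none higher, against 35.9% of all probe sets (2.88% higher, 33% lower). Over all probe sets the median difference was -0.28 as deposited and 0.05 after setting the array medians equal; after that 18.4% passed (11.9% higher, 6.54% lower), and of the 8 genes only Vegfc, which was higher. After quantile normalization 16.2% passed (6.85% higher, 9.35% lower) and none of the 8, where 2 had an unadjusted limma p under 0.05. As deposited, the groups did not overlap for 1 of the 8, Pgf, against 24.1% of all probe sets. After centring or quantile normalization the Pgf groups overlapped. The Flt1 groups did not overlap after centring, nor did those of Vegfc after centring or quantile normalization. The share of all probe sets without overlap was not counted under these scalings. None was past a 2-fold limit as deposited, against 3.38%.

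Pgf was lower in NICD vehicle ears by 0.61 ± 0.15 as deposited (limma, adjusted p = 0.00538), with no overlap between the 4 NICD and the 6 control arrays. Centred, the difference was -0.28 (limma, adjusted p = 0.221). Vegfa differed by -0.54 ± 0.21 (limma, adjusted p = 0.04996) and by -0.21 centred (limma, adjusted p = 0.518). That Vegfa call was lost when any array other than control vehicle replicate 1 or 2 or NICD vehicle replicate 3 was left out, and without NICD vehicle replicate 1 the difference was -0.31. Vegfc was 0.34 ± 0.19 higher (limma, adjusted p = 0.180) and 0.66 ± 0.19 higher centred (limma, adjusted p = 0.0228). Without NICD vehicle replicate 1, the highest Vegfc value of its group, the difference as deposited was 0.16 (limma, adjusted p = 0.543); centring without that array was not run.

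The other genes did not pass on either scale. Kdr differed by -0.14 as deposited and 0.19 centred, Flt1 by -0.07 and 0.26, Nrp1 by -0.18 and 0.14, and Vegfb by -0.31 and 0.02, so that their direction depends on the scaling. Nrp2 differed by 0.03 and 0.35. Without NICD vehicle replicate 4, Vegfb passed (-0.40, limma, adjusted p = 0.0319), Vegfa did not (limma, adjusted p = 0.0854) and Pgf did (-0.69, limma, adjusted p = 0.00508). Without control DNFB replicate 3 Vegfb also passed (limma, adjusted p = 0.0423).

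**Figure D3:**
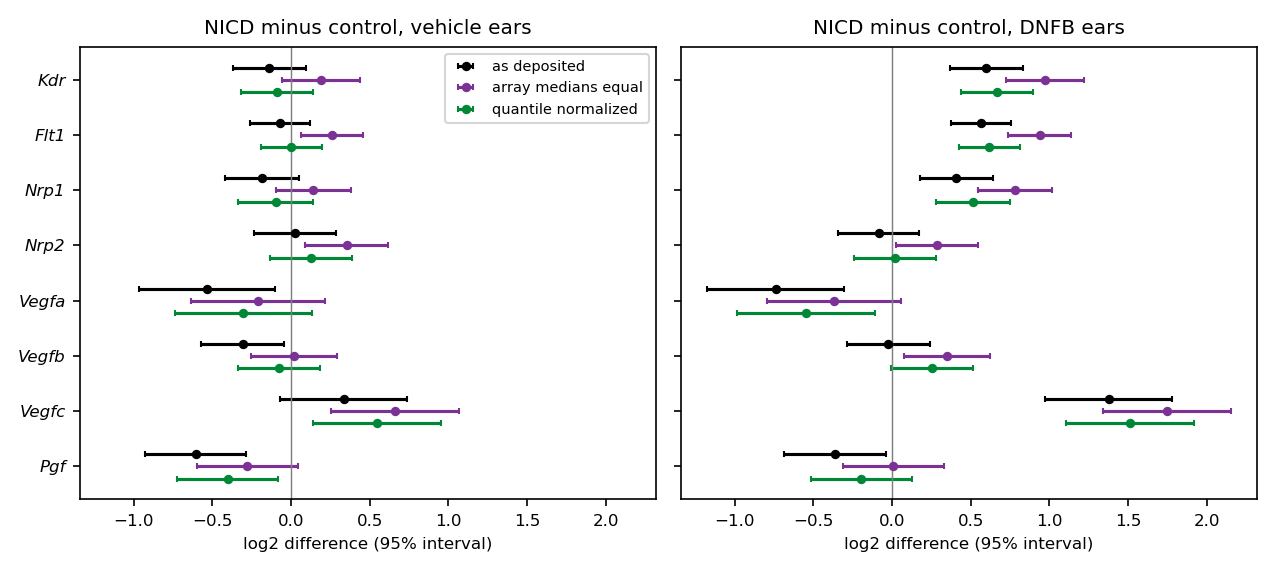
NICD minus control difference (log2, x axis) of the 8 genes in vehicle (left) and DNFB ears (right) under 3 scalings of the arrays; points are limma estimates and bars 95% intervals. In DNFB ears Kdr, Flt1, Nrp1 and Vegfc lie above 0 under each scaling, whereas in vehicle ears the intervals of most genes include 0 or shift across it.

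In DNFB ears the NICD arrays had more Vegfc, Kdr, Flt1 and Nrp1 than the control arrays under each of the 3 scalings. As deposited, 4 of the 8 genes were higher and 1, Vegfa, lower, against 5.45% of all probe sets higher and 35.1% lower (40.5% in all). After centring the same 4 were higher and none lower, against 20.7% higher and 8.12% lower (28.8%). After quantile normalization 23.9% of all probe sets passed (11.9% in each direction). Past a 2-fold limit was Vegfc alone of the 8, against 5.38%. The groups did not overlap as deposited for 4 of the 8 genes (Kdr, Flt1, Vegfa and Vegfc), against 25% of all probe sets.

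Vegfc stood at 7.54 to 8.15 on the NICD DNFB arrays, above every control DNFB array (5.92 to 6.97). The difference of 1.38 ± 0.19 or 2.59-fold (limma, adjusted p = 4.03e-05) was the 179th largest among all probe sets, and centred it was 1.75 ± 0.19 or 3.36-fold (limma, adjusted p = 3.57e-06), the 28th largest. After quantile normalization it was 1.51 (limma, adjusted p = 3.49e-05). Each single array could be left out, with 1.25 to 1.5 as the range.

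Kdr was higher by 0.60 ± 0.11 (limma, adjusted p = 0.000375) and by 0.97 centred, and every NICD DNFB array (10.68 to 10.87) was above every control DNFB array (9.94 to 10.42). Flt1 was higher by 0.57 ± 0.09 (limma, adjusted p = 0.00013) and by 0.94 centred, again with no overlap. Nrp1 was higher by 0.41 ± 0.11 (limma, adjusted p = 0.00702) and by 0.78 centred. Its ranges, 8.26 to 8.52 and 7.86 to 8.33, overlapped as deposited because control DNFB replicate 3 reached 8.33.

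Vegfa was lower by 0.74 ± 0.21 in NICD DNFB ears (limma, adjusted p = 0.00845), with 6.69 to 7.30 against 7.49 to 8.04. The call did not outlast the scaling: the difference was -0.37 centred (limma, adjusted p = 0.185) and -0.55 after quantile normalization (limma, adjusted p = 0.0628). Pgf differed by -0.36 ± 0.15 (limma, adjusted p = 0.0664) and by 0.0085 centred. It passed as deposited without control DNFB replicate 3 or 6 (limma, adjusted p = 0.0354 and 0.0408). With all arrays kept, Pgf passed with array weights (-0.398, limma, adjusted p = 0.0391) and with the fixed replicate block (-0.396, limma, adjusted p = 0.0443). Nrp2 (-0.09 and 0.29 centred) and Vegfb (-0.03 and 0.35 centred) passed on neither scale and changed sign.

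Markers of lymphatic endothelium were higher in NICD arrays beside Vegfc. Their mean level over 5 genes was 7.10 to 7.94 over control vehicle and 7.79 to 8.42 over control DNFB arrays, and 8.26 to 9.51 and 8.45 to 9.31 over NICD vehicle and DNFB arrays. As deposited, 4 of the 5 passed in vehicle ears and 3 of the 5 in DNFB ears, none lower. Centred, 5 and 3 passed. Of all probe sets 2.88% were higher in vehicle and 5.45% in DNFB ears as deposited, and 11.9% and 20.7% centred. Lyve1, a lymphatic hyaluronan receptor, was higher by 1.35 and 1.01 (1.68 and 1.38 centred). Prox1, the transcription factor that defines lymphatic cells, differed by 0.47 and 0.21 and passed in neither treatment as deposited; centred it differed by 0.79 and 0.59 and passed in vehicle ears (limma, adjusted p = 0.0173 and 0.0527). Flt4, the receptor of VEGF-C, was 0.92 higher in NICD DNFB ears and 0.99 higher in NICD vehicle ears (1.29 and 1.32 centred). In NICD DNFB ears fibroblast markers were lower in 4 of 7 (1 of 7 centred). Platelet markers were lower in 3 of 5 (1 of 5 centred), against 35.1% of all probe sets (8.12% centred). Pan-endothelial markers were higher in 2 of 12 (9 of 12 centred), against 5.45% of all probe sets (20.7% centred). The part of these lists in the VEGF genes' differences was not tested.

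Ordered by level within each gene, the groups fell into different patterns. For Kdr, control vehicle (10.88 ± 0.15, SD), NICD DNFB (10.77 ± 0.08) and NICD vehicle ears (10.74 ± 0.15) overlapped, and control DNFB ears (10.17 ± 0.18) were apart. For Flt1, NICD DNFB ears (10.66 ± 0.03) were apart from an overlapping set of control vehicle (10.24 ± 0.07), NICD vehicle (10.17 ± 0.06) and control DNFB ears (10.10 ± 0.17). Centred, the Flt1 groups of NICD vehicle (10.36 ± 0.05) and control vehicle ears (10.10 ± 0.05) did not overlap. Nrp1 split by treatment, with control vehicle (9.77 ± 0.13) over NICD vehicle ears (9.58 ± 0.17), then a gap to NICD DNFB (8.40 ± 0.12) and control DNFB ears (7.99 ± 0.18). Nrp2 (8.82 ± 0.08 to 9.21 ± 0.26) and Vegfb (6.04 ± 0.13 to 6.52 ± 0.17) showed no gap between neighbouring groups.

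As deposited, Vegfa was highest in control DNFB ears (7.75 ± 0.24), which were apart. NICD DNFB (7.01 ± 0.30), control vehicle (6.65 ± 0.34) and NICD vehicle ears (6.11 ± 0.48) followed, each overlapping the next. Centred, the Vegfa groups of control and NICD DNFB ears overlapped. Pgf had the same order as deposited (7.73 ± 0.27, 7.37 ± 0.23, 6.93 ± 0.23 and 6.32 ± 0.22), with its gap below control vehicle ears. Centred, Pgf averaged 7.60 in NICD DNFB and 7.59 in control DNFB ears, and its vehicle groups overlapped. Vegfc had NICD DNFB ears on top (7.90 ± 0.29), then NICD vehicle (7.13 ± 0.35), control vehicle (6.80 ± 0.21) and control DNFB ears (6.53 ± 0.38). Each overlapped its neighbour as deposited. Centred, the NICD and control vehicle groups of Vegfc did not overlap.

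The genes closest to each member were found by the root mean square (RMS) difference over the 20 arrays, each gene centred on its mean within its genotype. Kdr was nearest to Slc12a7, a potassium-chloride cotransporter (0.108, where Kdr itself varied by 0.308), and Klhl5 (0.142). Flt1 was nearest to the mechanosensitive channel gene Piezo1 (0.108 against 0.191) and to Hspg2, the basement membrane proteoglycan perlecan (0.117). Nrp1 was nearest to Dock6 (0.126 against 0.795) and Fli1, the endothelial ETS factor (0.152).

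Nrp2 was nearest to the RNA helicase gene Ddx6 (0.109 against 0.230) and Washc2 (0.125), and Vegfb to Brip1os (0.129 against 0.250) and the chromatin remodeller gene Chd4 (0.139). Vegfa was nearest to the elongation factor gene Ell2 (0.246 against 0.596) and Znhit3 (0.256), and Pgf to Utp15 (0.167 against 0.503) and the G protein gene Gna13 (0.177). Vegfc had the largest distances to its neighbours, Abcb6 (0.255 against 0.386) and Carmil3 (0.271).

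Of 96 other genes listed for the pathway, 89 had a probe set with their symbol and 87 were tested. After DNFB 26 rose and 34 fell in control mice and 28 rose and 28 fell in NICD mice (limma), with medians of -0.10 and -0.05 over the 87. Among all probe sets 23.7% rose and 23.6% fell in control mice and 20% rose and 18.1% fell in NICD mice. For the difference of the DNFB effects none of the 87 passed in limma, and 20 of the 87 had an unadjusted p under 0.05, against 10.6% of all probe sets. Between the genotypes the split depended on the scaling: in DNFB ears 11 were higher and 28 lower as deposited and 33 and 5 centred, and in vehicle ears 8 and 29 as deposited and 21 and 4 centred. As deposited, the lower calls are about as frequent as among all probe sets, of which 35.1% were lower in DNFB ears and 33% in vehicle ears; centred, 20.7% of all probe sets were higher in DNFB ears and 11.9% in vehicle ears.

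Of 2 other ligands and receptors tested, Vegfd, a second lymphatic ligand, fell in both genotypes, by 1.02 ± 0.15 in control and 0.77 ± 0.18 in NICD mice (limma, adjusted p = 1.00e-05 and 0.00214). Flt4 differed by -0.22 and -0.29 and did not pass (limma, adjusted p = 0.402 and 0.405).

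Of 19 partners of the receptors, 9 rose and 5 fell in control mice, against 23.7% and 23.6% of all probe sets. In NICD mice 8 rose and 1 fell, against 20% and 18.1%. The integrin subunit genes Itgb3 and Itgav rose, by 1.45 ± 0.19 and 1.36 ± 0.15 in control and by 1.73 ± 0.23 and 0.86 ± 0.18 in NICD mice. The semaphorin genes Sema3a and Sema3f, whose products compete for neuropilins, rose by 1.17 and 0.89 in control and by 1.34 and 1.31 in NICD mice. Sema3g, an endothelial semaphorin gene, fell by 1.34 ± 0.20 in control mice and differed by -0.30 ± 0.24 in NICD mice (limma, adjusted p = 1.10e-05 and 0.362); in DNFB ears it was 1.73 higher in NICD arrays (2.10 centred).

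Of 25 genes of the signal relay 9 rose and 9 fell in control mice, and 9 and 8 in NICD mice. The shares of all probe sets were 23.7% and 23.6% in control and 20% and 18.1% in NICD mice. Plcg1, the phospholipase that KDR activates first, fell by 1.31 ± 0.09 and 1.17 ± 0.11. The adaptor gene Nck1 fell by 1.10 and 1.08, and Nfatc1, a calcium-driven transcription factor gene, by 1.15 and 1.32. Sphk1, a sphingosine kinase gene, rose by 1.51 and 0.94, and Prkca, protein kinase C alpha, by 1.2 and 0.75.

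Of 20 genes known to be induced by VEGF in endothelium 7 rose and 5 fell in control mice, against 23.7% and 23.6% of all probe sets. In NICD mice 10 rose and 6 fell, against 20% and 18.1%. Apln, the tip cell peptide apelin, had the largest rise of the list in control mice, though not in NICD mice: it went from 4.94 ± 0.38 to 8.27 ± 0.55 in control mice (3.33 ± 0.26) and from 6.10 ± 0.64 to 8.22 ± 0.32 in NICD mice (2.12 ± 0.31). F3, tissue factor, rose by 3.00 and 2.18, and Plaur, the urokinase receptor, by 2.05 and 2.52.

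Genes listed for the transcription of the receptors and ligands, which include oxygen sensors beside transcription factors, fell more often than they rose. In control mice 14 of 21 fell and 1, Hif1a, rose, against 23.6% and 23.7% of all probe sets. In NICD mice 12 fell and 1 rose, against 18.1% and 20%. Fli1 fell by 1.62 ± 0.12 and 0.96 ± 0.15, the arterial SOX factor gene Sox17 by 1.45 and 1.10, and the Notch target Hey2 by 1.27 and 1.25. Egln3, an oxygen-sensing hydroxylase gene, fell by 0.94 and 1.34. Hif1a, the hypoxia factor, rose by 0.75 and 0.76.

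**Figure D4:**
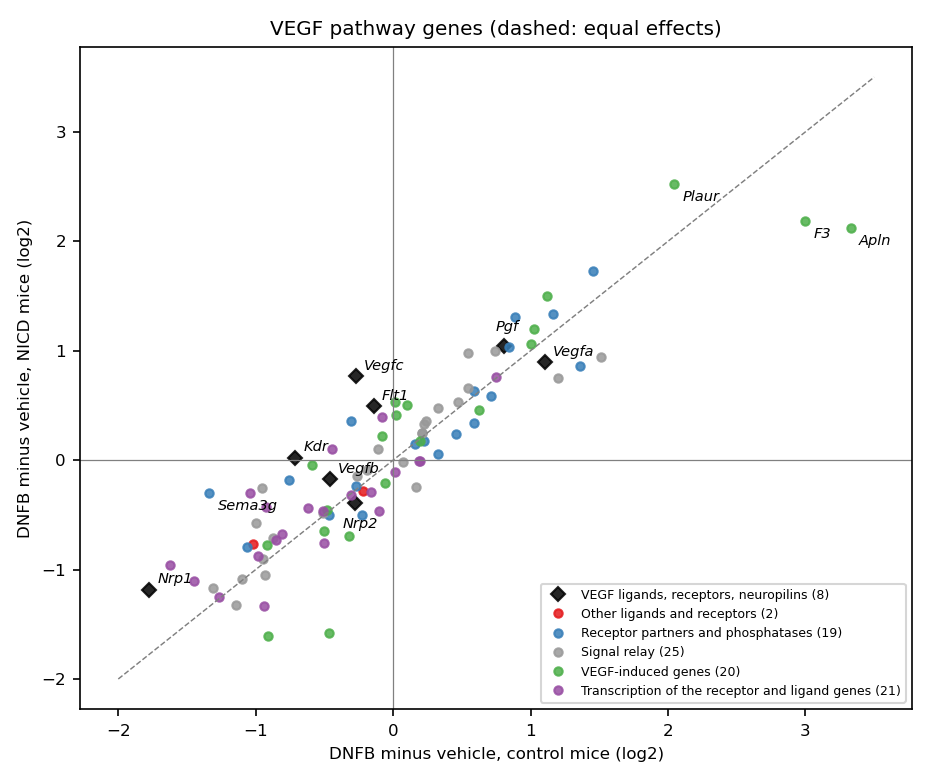
DNFB minus vehicle in control mice (x axis, log2) against the same in NICD mice (y axis, log2) for the 8 VEGF genes (diamonds) and 87 other pathway genes (circles, coloured by list); the dashed line marks equal effects. Apln, F3 and Plaur lie farthest to the upper right. Kdr, Flt1, Vegfc, Nrp1, Pgf and Vegfb lie above the line, and Vegfa and Nrp2 below it.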

How the data were processed

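The deposited log2 values per probe set were made by the authors with RMA in Affymetrix Expression Console, per the submitters' processing notes; versions, options and annotation are not given in the sources used here. Per the labels' protocols, WT Pico amplification started from 1 ng of RNA. Of 41345 probe sets 23521 had 1 symbol, 1814 several and 16010 none. Kept were those with 1 symbol that exceeded the median of its array in 4 or more arrays: 14886 probe sets of 14178 genes. One mean per group was fitted over 20 arrays with limma 3.58.1 (R 4.3.3), with Benjamini-Hochberg adjustment and a threshold of 0.05. The fit was tested on simulated data. Figures used matplotlib 3.10.9 (Python 3.11.15). The number of arrays limits the precision.

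Members, gene lists and markers were chosen with earlier results of these data known. Named pathway genes are the up to 3 largest DNFB effects per list and genotype past the threshold, and the 2 genes nearest each member. Flt4, Hif1a, Hey1, Notch1, Tek, Pecam1, Cdh5, Lyve1, Prox1, Krt14, Krt6a, Krt16 and the background and sex markers were named outside that rule, after their values were seen. Same-numbered arrays correlated at 0.04 to 0.27, not all above 0.1, so numbers were not taken as pairs. Alternatives were other filters, all probe sets, 3 scalings, variance models, array weights, only the groups compared, replicate blocks, a 2-fold limit and each array left out. Sex could not be fitted beside genotype.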

Additional observations from a re-analysis of the deposited data

Results flagged for a closer look

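Of 32 sets of arrays examined (8 genes in 4 groups), 2 held an array whose gap to its nearest neighbour was large for the range of its group; chance flags about 1 in 20. Kdr was 11.19 on control vehicle replicate 3, where the other 5 arrays lay between 10.78 and 10.87. Nrp1 was 8.33 on control DNFB replicate 3, where the other 5 lay between 7.86 and 8.02. Over all single omissions, these arrays included, the DNFB differences in control mice still passed, at -0.76 to -0.65 for Kdr and -1.84 to -1.73 for Nrp1.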

How the results depend on the processing

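All 8 genes were above background on every array; limits are 4 arrays per NICD group, a genotype that goes with sex and array set, and deposited values whose scale differs between the genotypes. Over single-array omissions the members past the threshold numbered 5 to 6 for DNFB in control mice, 5 to 6 for DNFB in NICD mice, 1 to 2 and 5 to 6 for NICD against control in vehicle and DNFB ears, and 0 to 2 for the difference of effects; the other pathway genes numbered 57 to 60, 49 to 56, 31 to 37, 27 to 41 and 0 to 1. Of all 14886 probe sets, 6674 to 7035, 5054 to 5792, 4362 to 5525, 4852 to 6115 and 0 to 29 passed over these omissions, in the same order. With a 2-fold limit the member counts were 2, 2, 0 and 1 in the first 4 comparisons, against 11.4%, 10.9%, 3.38% and 5.38% of all probe sets. In vehicle ears the count between genotypes was 1 with no filter, with all probe sets, after centring, with only the groups compared and with the fixed replicate block, and 0 after quantile normalization or cyclic loess. Among the probe sets tested, 7045 of 23521 passed with no filter and 6710 of 24319 with all probe sets. Of 14886, 2741 passed after centring, 5249 with only the groups compared and 4777 with the fixed replicate block. After quantile normalization 2412 passed, and after cyclic loess 2326. Pathway genes between genotypes in vehicle and DNFB ears numbered 20 and 24 after cyclic loess, against 37 and 39 as deposited. All probe sets past the threshold numbered 2326 and 3539 after cyclic loess, against 5343 and 6036 as deposited. For the difference of effects 2 members (Kdr and Flt1) passed with trended and robust variances, array weights or the random replicate block (correlation 0.0951), and 2 pathway genes with trended and robust variances. Of 14886 probe sets 27, 17 and 20 passed with these settings, in that order. Whether replicate numbers pair the arrays is not settled: 6 of 10 numbers correlated best with themselves, a hint from the data and not from the design. The blocks changed no other count of members by over 1.5 times. The sign of some differences that did not pass turned. In NICD mice the DNFB difference of Kdr was -0.0135 (quantile) and -0.14 (loess), and -0.033 to 0.074 over omissions. In vehicle ears between genotypes, Flt1 was 0.0015 (quantile), 0.26 (centred) and 0.010 (loess), Kdr 0.19, Nrp1 0.14 and Vegfb 0.019 centred, and Nrp2 -0.047 with the fixed replicate block and -0.076 to 0.13 over omissions. In DNFB ears Nrp2 was 0.021 (quantile) and 0.29 (centred), Vegfb 0.26, 0.35 and 0.24 (quantile, centred, loess) and -0.097 to 0.026 over omissions, and Pgf 0.0085 centred. The causes were not tested. Each member has 1 probe set, so averaging probe sets gives no other value, and the difference of effects needs all groups.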
